A study of Homo sapiens with 6 samples.

Results

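The genes described here encode UPF and SMG proteins, the dedicated factors of nonsense-mediated mRNA decay (NMD). They were chosen by name, as the rows of the deposited count table called UPF1, UPF2, UPF3A, UPF3B, SMG1, SMG5, SMG6, SMG8 and SMG9, and all 9 were found among the table's 56303 gene rows. RNA was sequenced from the human gastric cancer cell line AGS, grown in DMEM/F12 with serum. The 3 libraries called siSRSF2 are from cells given a small interfering RNA that targets the splicing factor gene SRSF2, and the 3 control libraries are from cells labelled WT. The comparison asks how the transcriptome differs when SRSF2 is silenced. The labels do not tell whether the WT cells were mock-transfected or given a control siRNA, nor how long after transfection RNA was taken. They also do not say that the libraries of a group came from separate cultures, and the p-values reflect only the spread among these libraries, which may be technical.

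NMD degrades mRNAs on which a ribosome stops early. UPF1, an RNA helicase, is phosphorylated by the kinase SMG1, which SMG8 and SMG9 hold in check, and UPF2 with UPF3A or UPF3B links UPF1 to exon junction complexes left downstream of the stop codon. Phosphorylated UPF1 then recruits the endonuclease SMG6, which cuts the transcript, and SMG5, which helps to bring in deadenylation and decapping. Splicing factor genes and NMD are tied together, since many SR protein genes, SRSF2 included, carry alternative exons whose inclusion sends the transcript to NMD. Several NMD factor mRNAs are themselves NMD substrates.

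Total read counts ranged from 47518943 to 50021152 in WT and from 26610937 to 36651623 in siSRSF2 libraries. SRSF2 itself was at 22.7 ± 1.83 CPM in siSRSF2 cells against 45.0 ± 1.19 CPM in WT (CPM, read counts scaled to a common library size; SD, n = 3 per group), a log2 fold change of -0.98. Among 7 epithelial markers, KRT8 (3236 CPM in WT) and KRT18 (1099 CPM) were high, whereas EPCAM was at 5.00 CPM, KRT19 at 3.21, CLDN7 at 1.70, CLDN4 at 1.45 and CDH1 at 0.219, so the epithelial label rests on the keratins 8 and 18. The summed level of these 7 markers was 4130 to 4550 CPM in WT and 3690 to 3960 in siSRSF2. That of 5 leukocyte markers was 24.4 to 26.5 and 34.1 to 38.1 CPM, that of 5 fibroblast markers 22.2 to 22.6 and 50.9 to 56.1, and that of 4 endothelial markers 3.18 to 3.33 and 1.06 to 2.14. No marker was at 0 in every library. The part of these lists in the results below was not tested. In bulk RNA, a lower level in every cell and fewer cells with the transcript cannot be told apart.

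The UPF and SMG genes did not move as 1 block. The genes of the SMG1 kinase complex, UPF1, UPF2 and SMG5 were lower in siSRSF2 cells, UPF3A and SMG6 were higher, and UPF3B did not pass the test. All 9 passed the filter on low counts, and their counts lay between 312 and 17921 in a single library. In edgeR's quasi-likelihood test with Benjamini-Hochberg adjustment over 23689 genes, 8 of the 9 genes differed between the groups, against 59.1% of all tested genes. Of the 9, 6 were lower, against 29.0% of all tested genes, and 2 were higher, against 30.1%. Their median log2 fold change (siSRSF2 minus WT) was -0.31, against 0.02 over all tested genes. The 3 siSRSF2 libraries did not overlap the 3 WT libraries in 8 of the 9 genes, where this held for 63.8% of all tested genes. With libraries scaled by their totals alone, 5 of the 9 were lower and 3 higher, against 23.2% and 36.1% of all tested genes, and their median was -0.19 against 0.15 over all tested genes. The shares over all tested genes include many genes with lower counts than the members. Each member's WT level exceeded that of 69.6% to 98.0% of tested genes. With genes under a mean CPM of 1 left out, 6 members were lower and 3 higher, against 34.8% and 35.7% of the genes then tested.

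**Figure D1:**
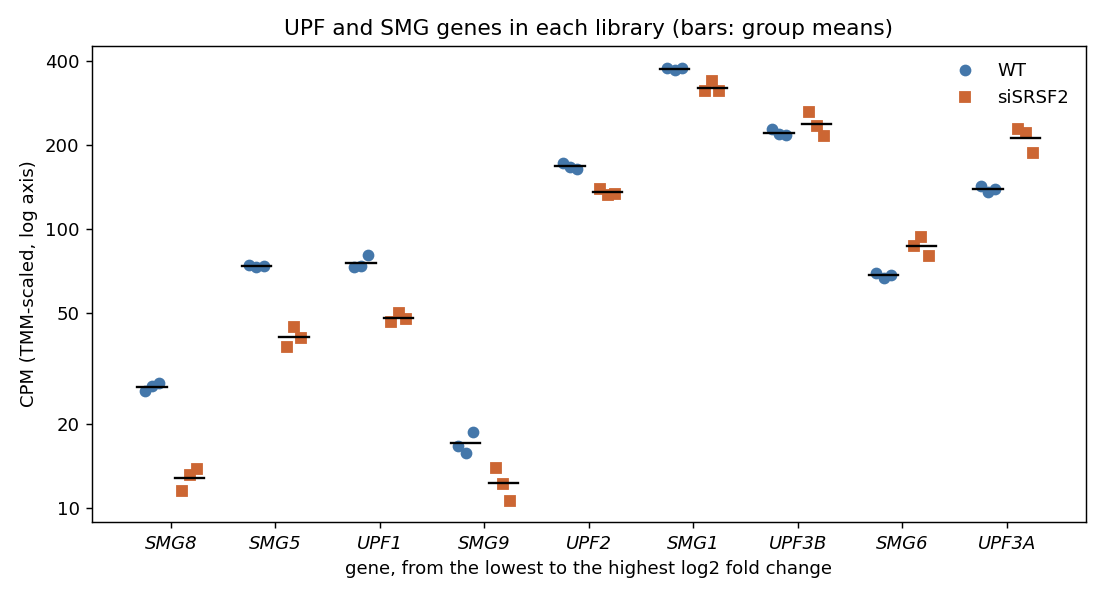
CPM of the 9 genes in each library on a log axis, WT as circles and siSRSF2 as squares, with a bar at each group mean and genes ordered by log2 fold change. SMG8 and SMG5 lie furthest below WT, and UPF3A lies furthest above it.

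The core helicase gene UPF1 (chromosome 19, 18831938 to 18868236, plus strand, GRCh38) was at 72.9, 73.2 and 80.6 CPM in the WT libraries and at 46.3, 49.7 and 47.2 CPM in the siSRSF2 libraries. Every siSRSF2 library was below every WT library. The log2 fold change was -0.66 (edgeR adjusted p = 4.73e-11, SE 0.054). UPF2 (chromosome 10, 11920022 to 12043170, minus strand), whose product bridges UPF1 and the UPF3 proteins, was at 172.4, 165.7 and 164.2 CPM in WT and at 138.7, 132.1 and 133.3 CPM in siSRSF2. The groups did not overlap, and the change was smaller than that of UPF1 (log2 fold change -0.31, edgeR adjusted p = 9.48e-07, SE 0.045). Tested against a change of 1.2-fold in place of no change, UPF2 did not pass (edgeR adjusted p = 0.0915). The log2 ratio of UPF2 to UPF1 within a library was 1.15 ± 0.11 in WT and 1.5 ± 0.087 in siSRSF2 (SD, n = 3 per group; exact permutation test, two-sided, p = 0.1, which is as low as 3 against 3 can reach).

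The paralogues UPF3A and UPF3B, alternative adaptors between UPF2 and the exon junction complex, differed in their response. UPF3B is the stronger NMD activator, and UPF3A protein is known to build up when UPF3B is missing. UPF3A (chromosome 13, 114281584 to 114305817, plus strand) was at 142.0, 135.2 and 138.1 CPM in WT and at 227.9, 220.8 and 186.1 CPM in siSRSF2. All siSRSF2 libraries were above all WT libraries, replicate 3 by the least, and the rise was 1.53-fold (log2 fold change 0.61, edgeR adjusted p = 4.16e-08, SE 0.060). UPF3B (chromosome X, 119805311 to 119852998, minus strand) was at 227.4, 218.8 and 216.3 CPM in WT and at 261.9, 233.5 and 214.5 CPM in siSRSF2. The groups overlapped, because siSRSF2 replicate 3 was below every WT library while replicates 1 and 2 were above them. The fitted log2 change was 0.10 (edgeR adjusted p = 0.14, SE 0.056). Without siSRSF2 replicate 3 it was 0.16 (edgeR adjusted p = 0.00749), and without siSRSF2 replicate 1 it was 0.027 (edgeR adjusted p = 0.687). With scaling by library totals it was 0.23 (edgeR adjusted p = 0.000301), so the call on UPF3B depends on single libraries and on the scaling.

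The ratio of the paralogues does not depend on the scaling. UPF3A counts were 0.627 times those of UPF3B in WT and 0.894 times in siSRSF2. The log2 ratio was -0.679, -0.695 and -0.647 in WT and -0.201, -0.0804 and -0.205 in siSRSF2, and the groups did not overlap. The difference of 0.51 gave p = 0.1 in the exact permutation test (two-sided), the smallest p this design allows, and 0.12 after Benjamini-Hochberg adjustment over the 5 ratios compared. Leaving out each library in turn kept the difference between 0.47 and 0.53.

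The genes of the SMG1 kinase complex were all lower, to different degrees. SMG1 (chromosome 16, 18804853 to 18926454, minus strand), the PI3K-like kinase of UPF1, was at 375.7, 370.0 and 377.7 CPM in WT and at 311.1, 337.9 and 310.2 CPM in siSRSF2. The libraries did not overlap, and the fall was small (log2 fold change -0.23, edgeR adjusted p = 8.57e-05, SE 0.045). When libraries were scaled by their totals, its log2 fold change was -0.10 and it did not pass (edgeR adjusted p = 0.057), nor did it against a change of 1.2-fold (edgeR adjusted p = 0.686).

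SMG8 (chromosome 17, 59209400 to 59215247, plus strand), which encodes an inhibitory subunit of the kinase, fell most of the 9. It was at 26.1, 27.2 and 27.99 CPM in WT and at 11.5, 13.1 and 13.7 CPM in siSRSF2, so that every siSRSF2 library was far below every WT library. The change was 2.11-fold (log2 fold change -1.08, edgeR adjusted p = 2.23e-12, SE 0.076), and only 4.88% of all tested genes had a lower log2 fold change. Part of the SMG8 row is uncertain, since 422 of its 3752 exon bases (11.2%) lie in CTD-2510F5.6 on the same strand, a row at 5.49 CPM in WT and 5.71 CPM in siSRSF2 (log2 fold change 0.06, edgeR adjusted p = 0.71).

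SMG9 (chromosome 19, 43727992 to 43754990, minus strand), the partner of SMG8, had the lowest counts of the 9 genes in WT libraries. It was at 16.6, 15.7 and 18.6 CPM in WT and at 13.9, 12.1 and 10.6 CPM in siSRSF2. The groups did not overlap, with a narrow gap between the highest siSRSF2 and the lowest WT library (log2 fold change -0.48, edgeR adjusted p = 7.52e-05, SE 0.093). Within a library, SMG1 counts were 13.8 times those of SMG8 in WT and 25 times in siSRSF2 (exact permutation test, two-sided, p = 0.1, the smallest possible here). The ratio of SMG1 to SMG9, 22.0 in WT and 26.3 in siSRSF2, overlapped between the groups (exact permutation test, two-sided, p = 0.3).

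The genes that act after UPF1 phosphorylation moved in opposite directions. SMG5 (chromosome 1, 156249224 to 156282825, minus strand), whose product binds phosphorylated UPF1, was at 73.9, 72.8 and 73.4 CPM in WT and at 37.6, 44.5 and 40.5 CPM in siSRSF2. The WT libraries lay close together and all siSRSF2 libraries were below them (1.79-fold lower, log2 fold change -0.84, edgeR adjusted p = 1.11e-12, SE 0.057). SMG6 (chromosome 17, 2059839 to 2303771, minus strand), the endonuclease gene, was at 69.1, 66.6 and 68.1 CPM in WT and at 86.3, 93.3 and 79.7 CPM in siSRSF2. All siSRSF2 libraries were above all WT libraries, and the rise was 1.27-fold (log2 fold change 0.35, edgeR adjusted p = 3.22e-06, SE 0.054). Counts of SMG6 were 0.926 times those of SMG5 in WT and 2.11 times in siSRSF2. The log2 ratio rose by 1.19 with no overlap between groups (exact permutation test, two-sided, p = 0.1, the smallest possible here; 0.12 adjusted over 5 ratios).

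The SMG6 row shares exon positions with other genes, which limits this value. Of its 10554 exon bases, 2419 (22.9%) lie in HIC1 on the opposite strand, 68 in SRR and 191 in AC090617.1. No label or header tells whether strand was used in counting, and without strand a read from the shared stretch cannot be placed on SMG6 or HIC1. HIC1, a transcriptional repressor gene, was at 2.12 CPM in WT and 3.19 CPM in siSRSF2 (log2 fold change 0.59, edgeR adjusted p = 0.00358). The level of the HIC1 row rests on the same uncertain assignment. SRR, the serine racemase gene, was lower (log2 fold change -0.58, edgeR adjusted p = 2.33e-08). SMG1 shares 171 bases with RP11-1035H13.2 on the opposite strand (log2 fold change -0.24, edgeR adjusted p = 0.0597). UPF1, UPF2, UPF3A, UPF3B, SMG5 and SMG9 share no exon base with another row.

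**Figure D2:**
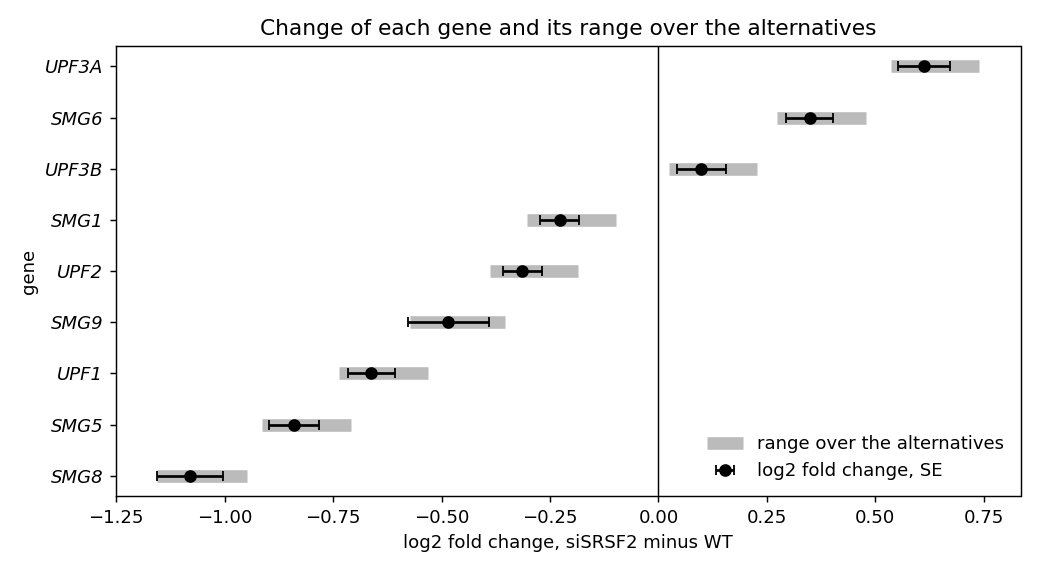
Log2 fold change of each gene (siSRSF2 minus WT, points, with SE bars) over the range of the same value in the alternative analyses (grey bars). No range crosses 0, from SMG8 (-1.15 to -0.95) to UPF3A (0.54 to 0.74).

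Ordered by log2 fold change, the closest neighbours were UPF2 and SMG1, 0.086 apart with a combined SE of 0.063, and every other neighbouring pair was at least 0.17 apart. UPF1 and SMG9 were 0.177 apart with a combined SE of 0.108, and SMG9 and UPF2 0.17 apart with 0.104. The place of SMG9 among these genes and the order of UPF2 and SMG1 are therefore not clearly resolved. UPF1 (-0.66, SE 0.054) fell more than UPF2 (-0.31, SE 0.045) and SMG1 (-0.23, SE 0.045).

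Levels were compared between the genes per kilobase of merged exon (CPM per kb). In WT cells UPF3B was highest at 71.7 ± 1.89 CPM per kb, followed by UPF2 (28.3 ± 0.742), UPF3A (24.0 ± 0.591), SMG1 (14.4 ± 0.153), SMG5 (13.8 ± 0.106), UPF1 (8.79 ± 0.507), SMG8 (7.22 ± 0.249), SMG6 (6.44 ± 0.122) and SMG9 (2.14 ± 0.188; SD, n = 3). The WT libraries of neighbours in this order did not overlap. In siSRSF2 cells UPF3A (36.7 ± 3.88 CPM per kb) stood above UPF2 (22.8 ± 0.597), and SMG6 (8.19 ± 0.644) stood beside SMG5 (7.71 ± 0.655), whose libraries overlapped. No other neighbours in the siSRSF2 order overlapped. SMG8 was then at 3.40 ± 0.308 and SMG9 at 1.54 ± 0.207 CPM per kb. Merged exon length counts every annotated exon, also rarely used ones, and so understates the level of genes with many such exons. Merged lengths of UPF3A and UPF2 are 5772 and 5906 bases. Their main coding transcripts have 1428 and 3816 coding bases, and 3′ untranslated regions of 900 and 1276 bases. The order of levels, also that of UPF3A and UPF2 in WT, therefore depends on the length used. Levels per main transcript were not computed.

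SMG1 and UPF3A have annotated pseudogene copies, which make their read assignment uncertain. Of the 50-base stretches of transcript SMG1-202 in GENCODE 29, 18.9% also occur in transcripts of other genes, and of those of UPF3A-202 42.1% do. UPF1, UPF2, UPF3B and SMG5 share no such stretch with another gene, and SMG9 shares 0.165%. SMG6 shares 29.6%, all of it with HIC1 and SRR, and SMG8 shares 11% with AC099850.2. The copies of SMG1 took 29.3% to 30.0% of the reads counted on SMG1 and its copies in WT, and 33.5% to 34.5% in siSRSF2. All 7 copies were tested. SMG1P2 (log2 fold change -0.35), SMG1P5 (-0.39) and SMG1P6 (-0.45) were lower, and SMG1P1 (0.20) and SMG1P3 (0.23) were higher. SMG1P4 (0.10, edgeR adjusted p = 0.164) and SMG1P7 (0.14, edgeR adjusted p = 0.246) did not pass.

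For UPF3A the copies took 10.9% to 11.9% of the joint count in WT and 7.47% to 8.86% in siSRSF2. UPF3AP2 was higher, at 6.53 ± 1.72 against 4.15 ± 0.141 CPM (log2 fold change 0.64, edgeR adjusted p = 0.000675, SE 0.15). UPF3AP1 (0.17, edgeR adjusted p = 0.271) and UPF3AP3 (-0.22, edgeR adjusted p = 0.069) did not pass. When the counts of all copies were added to the parent row, SMG1 remained lower (log2 fold change -0.13, edgeR adjusted p = 0.0136) and UPF3A remained higher (0.57, edgeR adjusted p = 4.8e-08). The joint counts were fitted with the main scaling only. With scaling by library totals, SMG1 did not pass even without its copies (edgeR adjusted p = 0.057).

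**Figure D3:**
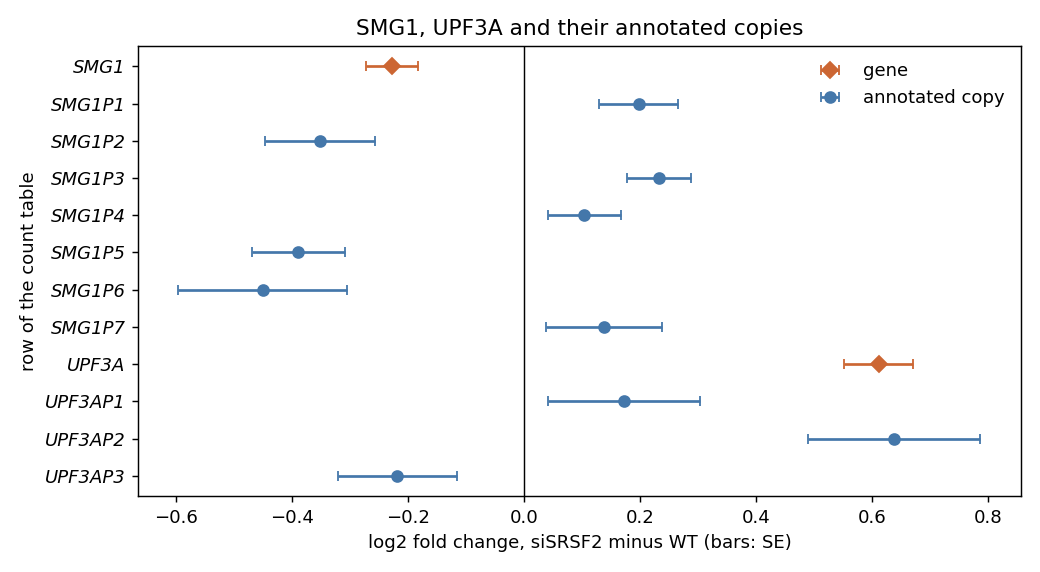
Log2 fold change (siSRSF2 minus WT, with SE bars) of SMG1 and UPF3A (diamonds) and of their annotated copies (circles). The SMG1 copies lie on both sides of 0, between -0.45 and 0.23, and UPF3A lies near UPF3AP2 and above UPF3AP1 and UPF3AP3.

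Gene structure varied among the 9 genes. In GENCODE 29, transcripts classed as NMD substrates are annotated for 3 of them (SMG1, SMG8 and SMG9, 1 transcript each), a share of 33.3% against 41.6% of the tested protein-coding genes. These 3 genes were lower in siSRSF2, but so were UPF1, UPF2 and SMG5, which have no such transcript. Of all tested genes, 29.0% were lower. The 3′ untranslated region of the main coding transcript, whose length can mark an mRNA for NMD, had a median of 1363 bases over the 9 genes, against 1018 bases over the tested protein-coding genes. It was longest in SMG1 (4716 bases) and SMG9 (3604 bases) and shortest in SMG8 (237 bases). The raised genes UPF3A (900 bases) and SMG6 (1649 bases) lay between them. So did UPF1 (1719 bases), UPF2 (1276 bases) and SMG5 (1363 bases), which were lower. A link between these features and the changes was not tested.

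Promoter sequences are shown for the genes with the clearest rises (UPF3A, SMG6) and falls (SMG5, UPF1) among the 8 with a RefSeq promoter entry (GRCh38.p14). SMG8 had no entry. Each is the sequence just upstream of the annotated exons, except that the SMG6 window ends before a RefSeq start site 14 bases upstream of them. All run 5′ to 3′ on the gene's strand, with capitals marking the GC box GGGCGG on either strand.
UPF3A, chr13:114281451-114281583, plus strand: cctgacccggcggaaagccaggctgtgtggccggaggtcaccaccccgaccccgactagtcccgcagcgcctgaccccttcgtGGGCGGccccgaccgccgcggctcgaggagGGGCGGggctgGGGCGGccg
SMG6, chr17:2303786-2303935, minus strand: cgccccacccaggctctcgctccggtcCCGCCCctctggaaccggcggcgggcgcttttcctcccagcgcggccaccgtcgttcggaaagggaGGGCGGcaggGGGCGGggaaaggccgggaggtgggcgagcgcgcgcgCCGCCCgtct
SMG5, chr1:156282826-156282975, minus strand: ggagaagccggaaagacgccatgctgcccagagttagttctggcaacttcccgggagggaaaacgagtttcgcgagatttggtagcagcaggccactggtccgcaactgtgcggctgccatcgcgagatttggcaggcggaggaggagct
UPF1, chr19:18831809-18831937, plus strand: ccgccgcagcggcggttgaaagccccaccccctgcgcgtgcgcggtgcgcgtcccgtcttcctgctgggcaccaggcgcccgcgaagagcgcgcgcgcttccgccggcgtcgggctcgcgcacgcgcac

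The GC box occurred 3 times in the UPF3A and 4 times in the SMG6 window and not in those of SMG5, UPF1, UPF2 and SMG9. It was also present in SMG1, which fell, with 2 matches, and in UPF3B, with 1. The windows of the 8 genes span 104 to 150 bases. Over 27305 promoters, 36.7% held it in 150 bases before the start and 27.7% in the outer 104 of them. The CCAAT box (CCAAT, found in 24.4% of promoters over 150 bases and 19.7% over 104) matched in UPF2 and UPF3B. The E-box CACGTG (4.68% of promoters over 150 bases and 2.97% over 104), the ETS motif CCGGAAGT (3.19% and 1.37%) and TATAAA (7.05% and 3.54%) matched in none of the 8 windows. These matches describe the letters of the windows and not binding.

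The other genes of the pathway were described by lists, whose counts stand against 29.0% lower and 30.1% higher among all tested genes, or 23.2% and 36.1% with scaling by library totals. Of 9 further NMD factors, 7 were lower and 2 higher (median log2 fold change -0.45). DHX34, a helicase that aids UPF1 phosphorylation, fell to 9.32 ± 0.227 from 23.5 ± 2.04 CPM (-1.34), GNL2, a nucleolar GTPase, to 202 ± 13.7 from 501 ± 9.80 CPM (-1.31), and RUVBL1, an ATPase that acts with SMG1, to 145 ± 7.30 from 260 ± 3.55 CPM (-0.84). SEC13, which encodes a coat protein of secretory vesicles and nuclear pores, fell as well (-0.56). With scaling by library totals 5 of the 9 were lower and 2 higher.

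UPF3A and UPF3B contact the exon junction complex. All 9 genes of the list for this complex were lower (median log2 fold change -0.56), also with scaling by library totals. The paralogous core subunits MAGOHB (-1.32) and MAGOH (-1.28) fell, as did their partner RBM8A (-1.15) and the helicase EIF4A3 (-0.89). In the list of translation termination and cap- and tail-binding genes, 6 of 9 were lower and 2 higher (median -0.45). The release factor genes ETF1 (-1.23; 212 ± 6.64 to 90.6 ± 3.85 CPM) and GSPT1 (-0.81), the ribosome recycling factor gene ABCE1 (-1.19) and PABPC4 (-0.45), a poly(A)-binding protein gene, fell. The 2 higher genes were PABPC1 (0.20; 2863 ± 9.22 to 3281 ± 39.0 CPM), another poly(A)-binding protein gene, and CTIF (0.19).

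Among the other PI3K-like kinases and the TTT complex that stabilises these kinases, SMG1 included, 6 of 8 were lower and 2 higher (median log2 fold change -0.25). The TTT genes TTI2 (-1.23) and TTI1 (-0.56) fell, whereas the DNA damage kinase genes ATM (0.36) and PRKDC (0.32) rose. With scaling by library totals 4 were lower and 2 higher.

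Genes that finish the decay of a transcript were split. Of 21 genes for decapping, deadenylation and decay from the 5′ end, 11 were lower and 6 higher (median log2 fold change -0.22), and 9 and 8 with scaling by library totals, where the number higher is near the share over all tested genes. CNOT8 (0.93; 50.1 ± 0.840 to 95.8 ± 4.74 CPM), a catalytic subunit of the CCR4-NOT deadenylase, rose, while its paralogue CNOT7 fell (-0.80). The deadenylase subunit gene PAN2 (1.01) and XRN1 (0.60), the cytoplasmic exonuclease that removes SMG6 fragments, rose as well. Of 15 genes of the exosome and its SKI partner, which degrade from the 3′ end, 10 were lower and 1 higher (median -0.63). These numbers were 9 and 3 with scaling by library totals, or 10 and 0 with median-of-ratios factors. The exosome genes EXOSC3 (-1.11), EXOSC2 (-0.69), EXOSC9 (-0.65) and DIS3 (-0.63), a catalytic subunit gene, were lower. Among the SKI genes, SKIV2L (-0.011) did not pass and TTC37 (0.11) was the higher gene. WDR61 (-0.19) was lower, but did not pass with scaling by library totals (edgeR adjusted p = 0.412).

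Of 29 transcripts known as NMD substrates, 19 were lower and 7 higher (median log2 fold change -0.34), and 16 and 7 with scaling by library totals. The splicing regulator genes SRSF3 (-1.18), SRSF7 (-1.004) and TRA2B (-0.80), whose NMD-sensitive isoforms carry an extra exon, were lower, and GABARAPL1, an autophagy gene, was higher (1.21; 20.8 ± 1.33 to 47.9 ± 4.73 CPM). Counts per gene join all isoforms, so they do not show how much of a transcript carried such an exon. The lists were chosen with earlier results of these data known.

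**Figure D4:**
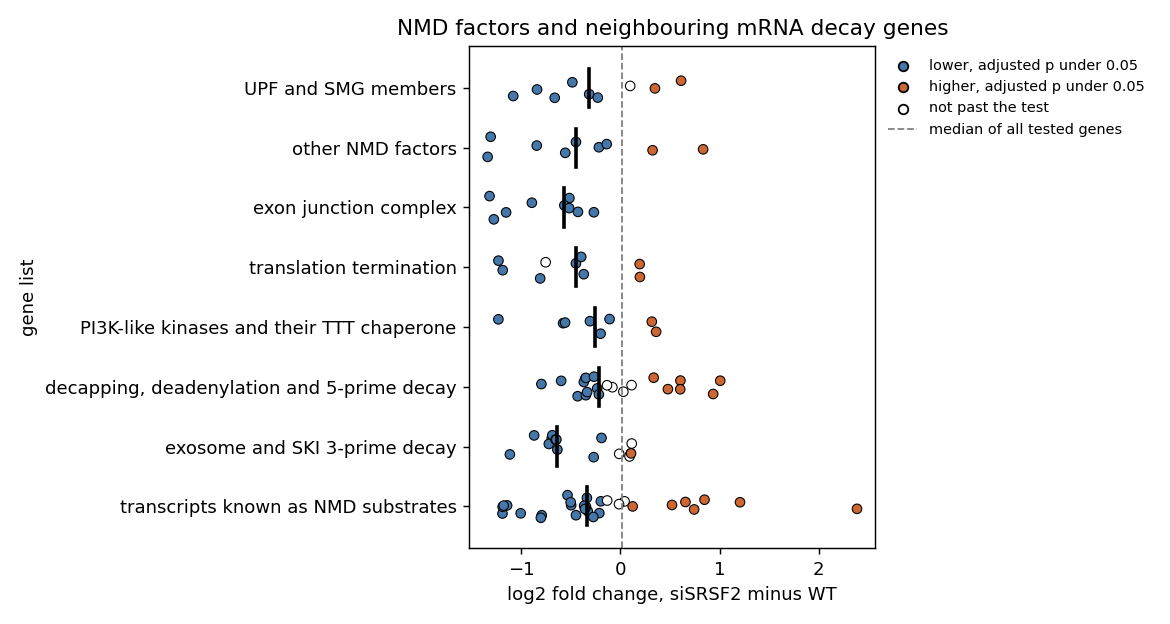
Log2 fold change (siSRSF2 minus WT) of each tested gene in the 8 lists, coloured by the edgeR call, with a black bar at each list's median and a dashed line at the median of all tested genes (0.02). All genes of the exon junction complex list lie below 0, and the UPF and SMG genes lie on both sides.

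The genes closest in pattern to the 2 extremes were sought among 9158 tested genes of at least 10 CPM on average, by the root mean square difference of centred log2 CPM over the 6 libraries. SMG8 was closest to SLC35B1 (0.021), IPO4 (0.025), with log2 fold changes of -1.08 and -1.09, and a clone-named row came next (0.029). UPF3A was closest to RP11-627J17.1 (0.029), MCCC1 (0.029) and TOM1L2 (0.031), with log2 fold changes of 0.63, 0.64 and 0.63.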

How the data were processed

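Per the labels' protocols, RNA for the 6 AGS libraries was isolated with TRI Reagent and prepared with SMARTER mRNA-Seq chemistry. The table deposited by the authors gives raw counts for each gene name, unnormalized. HISAT2 2.0.5 and featureCounts 1.5.0-p3 are named in the submitters' processing notes, which give the build as mm10. The deposited rows hold human gene names, and all 9 UPF and SMG rows have the same span as GENCODE 29 (GRCh38). The deposited exon length, another kind of value, gave CPM per kb.

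The fit was made with edgeR 4.0.16 in R 4.3.3. filterByExpr (minimum count 10) kept 23689 genes and 99.9% of counts. The fit used TMM scaling, group as the only term, a robust quasi-likelihood F test and Benjamini-Hochberg adjustment at 0.05. Each SE is the size of the log2 fold change divided by the square root of F. Log2 ratios used a prior count of 2. The script was run on simulated data with few changed genes, balanced in direction. Such data cannot test the scaling used here, where 59.1% of tested genes were called. Alternatives used DESeq2 1.42.0, limma 3.58.1 (voom), other scalings and filters, a replicate block, left-out libraries and a 1.2-fold threshold.

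The members and lists were chosen with earlier results of these data known. Named genes were all members, their annotated copies and overlapping genes, up to 4 genes per list with the smallest p (2 where under 25% were called), and the 3 nearest patterns of the extremes. PABPC1, CTIF and the SKI genes SKIV2L, TTC37 and WDR61 were named in addition. Chi-square values of 3.83 to 8.75 per gene showed no repeated library. A gene of the fixed lists is not reported here.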

Additional observations from a re-analysis of the deposited data

How the results depend on the processing

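Of 137 member log2 fold changes under alternatives, 131 kept their direction and their side of the threshold, and none reversed. The exceptions concern UPF2, UPF3B and SMG1. UPF3B passed also when genes under a mean CPM of 1 were left out (log2 fold change 0.15, edgeR adjusted p = 0.0298), and the cause was not tested. UPF1, UPF3A, SMG5, SMG6, SMG8 and SMG9 passed under every alternative run, SMG6 least clearly against a change of 1.2-fold (edgeR adjusted p = 0.0419). The number of members lower was 4 to 6 and the number higher 2 or 3. Scaling by library totals gave 5492 genes lower and 8560 higher of all tested, so that 60.9% of calls were higher in place of 51.0%. With the replicate number as a block, 6770 genes were lower and 6927 higher, and 6 members were lower and 2 higher. The numbers are not shown to pair the libraries, since the correlations of same-numbered deviations across genes were 0.013, -0.047 and -0.046. Counts of the members, at least 312 in each library, far exceed the floor of 3 counts.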
